A study of Homo sapiens with 2 samples.

Results

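AFP, ALB and 6 further genes for proteins that the liver secretes into plasma (TTR, APOA1, APOB, SERPINA1, FGB and AMBP) were read in SBC-3 cells, a small cell lung cancer (SCLC) line, after transfection of an siRNA against the long noncoding RNA HOTAIR. The 8 genes had 9 probes with 33 spots, among 42402 probes and 19061 named genes of the array. The set was chosen by values of these same arrays. AFP and ALB were picked for a more than 5-fold lower signal after transfection of the HOTAIR siRNA. TTR, APOA1, APOB, SERPINA1, FGB and AMBP were added to show whether other liver secretory genes moved as well. All values of the 8 genes are therefore descriptions. Probes were found by matching the RefSeq accession printed for each spot to the gene symbol.

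The comparison was between #1 siHOTAIR-transfected cells and siGFP-transfected cells, the control, both of the SBC-3 line, with siRNA at 20 nmol/L. Each condition was measured on 1 one-colour array, so there was no replicate, no test was possible, and array, culture and siRNA cannot be told apart. All values come from 1 line and 1 of the HOTAIR siRNAs. In the paper, the other HOTAIR siRNAs also lowered HOTAIR, but only #1 reduced proliferation and invasion. Fewer cells expressing a gene and less of its RNA per cell cannot be told apart either. The strand of the #1 siRNA that is complementary to HOTAIR is shown because it defines the treatment, with the seed (bases 2 to 8) in capitals.
#1 siHOTAIR antisense strand: uCUCUCUGuacucccguucuu

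AFP (alpha-fetoprotein) and ALB (albumin) are neighbouring members of one gene family that arose by duplication. AFP is the main plasma protein of the fetal liver and yolk sac, falls silent after birth, and is measured in blood as a marker of liver cancer and yolk sac tumours. Albumin replaces it as the main plasma carrier of the adult. In the liver, both genes and many other secretory genes depend on factors such as the FOXA and C/EBP proteins, and they are normally weak or silent in lung.

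Signals are fluorescence in arbitrary units after background subtraction. A log2 ratio sets the #1 siHOTAIR array against the siGFP array after each was scaled to its own 75th percentile, 650.3 and 629.9. A negative value thus means a lower signal on the #1 siHOTAIR array. A spot is called well above background by the scanner software, and the dimmest such spots had a signal of 28.6 on the siGFP array, against 37.3 for #1 siHOTAIR. Comparison was limited to the 24117 probes for which 50% or more of the spots passed this call in 1 condition or in both. The measurement SD given beside a log2 ratio was estimated from probes printed 10 times at a similar brightness, and it covers error within an array only. HOTAIR itself had 1 spot, with 108 after #1 siHOTAIR and 244 after siGFP, which was 57.2% lower (log2 ratio -1.22, measurement SD 0.18). The reference gene ACTB had log2 ratios of -0.05 and -0.02 on its 2 probes. Of the SCLC markers, NEUROD1 (213 against 372), YAP1 and REST passed the background call on both arrays, while INSM1, SYP and POU2F3 passed it on neither. CHGA, a neuroendocrine granule protein, was well above background on the #1 siHOTAIR array only (72.2 against 10.2, at least 2.44-fold higher).

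AFP RNA was 5.34-fold lower in the #1 siHOTAIR-transfected cells than in the siGFP-transfected control. Its single probe (A_33_P3421243) had 2 spots, which lay apart on the array. They gave 91.2 and 76.3 on the #1 siHOTAIR array, and 427 and 436 on the siGFP array. Both passed the background call in both conditions, and the spots of the 2 arrays did not overlap. Such spots repeat 1 probe within an array and are not replicates of a condition. The fold between the arrays was 4.83 at one spot and 5.90 at the other. The mean log2 ratio was -2.42 with a measurement SD of 0.13, so that 18.7% of the siGFP signal was left.

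ALB RNA was 5.75-fold lower, on a dimmer probe (A_23_P257834). Its 2 spots gave 42.5 and 43.1 on the #1 siHOTAIR array, and 223 and 255 on the siGFP array. Here too the spots of the 2 arrays did not overlap. The mean log2 ratio was -2.52 (measurement SD 0.13), with 17.4% of the siGFP signal left. On the #1 siHOTAIR array the spots were close to the background limit: the brighter was called well above background and the dimmer was not. The error that the scanner software gives for the log2 ratio of a single spot was also wider for ALB (0.34 and 0.38) than for AFP (0.24 and 0.27). AFP and ALB thus differed in log2 ratio by 0.11, which is less than the measurement SD of either.

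TTR RNA was 3.69-fold lower. TTR (transthyretin) carries thyroid hormone and, through its partner RBP4, vitamin A, and it is made in the liver and in the choroid plexus of the brain. Its 2 spots gave 290 and 283 on the #1 siHOTAIR array, and 1026 and 1024 on the siGFP array. All 4 values were far from background, and the spots of each array differed by little. The mean log2 ratio was -1.88 (measurement SD 0.07), so that 27.1% of the siGFP signal was left. TTR was the gene nearest to the 5-fold limit among the members outside it, and AFP the nearest inside it.

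**Figure D1:**
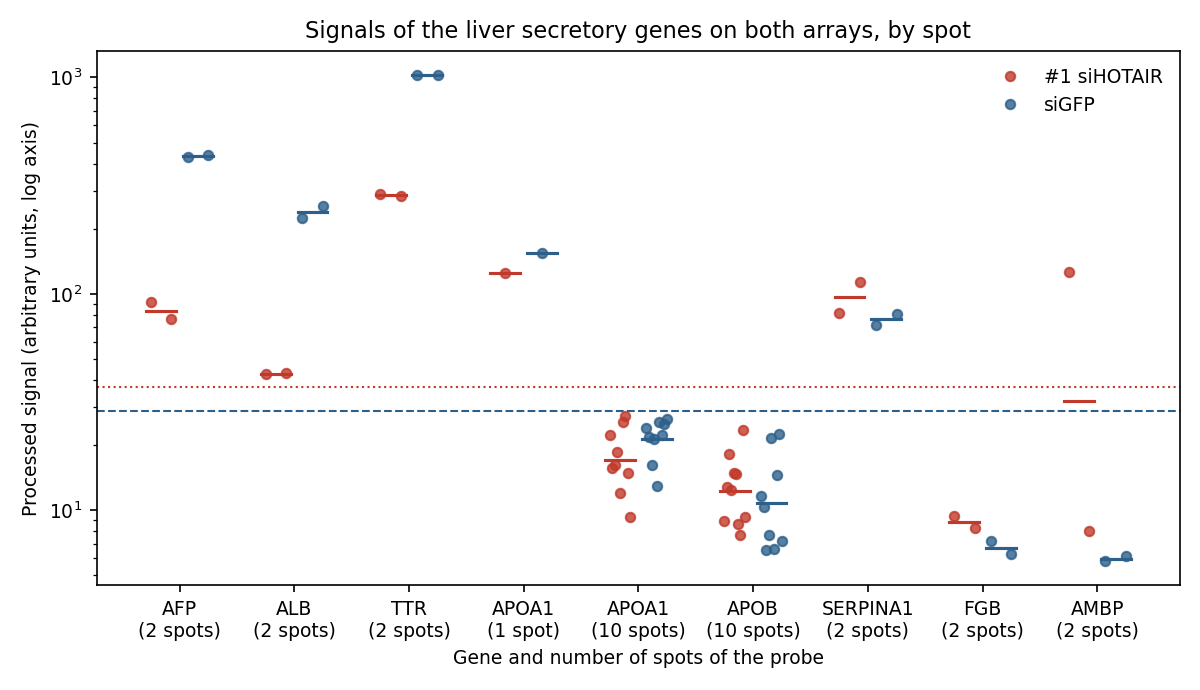
Processed signal (arbitrary units, log axis) of each spot of the 9 probes on the #1 siHOTAIR array (red) and the siGFP array (blue); bars are geometric means, and the dotted and dashed lines mark the dimmest signal well above background in each condition (37.3 and 28.6). Outlier spots are left out. AFP, ALB and TTR show separate red and blue spots, and the red spots of AMBP lie at 127 and 8.05.

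Of the other members, APOA1 and SERPINA1 were measured on both arrays and neither reached 2-fold. SERPINA1 encodes alpha-1 antitrypsin, the plasma inhibitor of neutrophil elastase. Its 2 spots gave 81.8 and 113 on the #1 siHOTAIR array, and 71.9 and 80.9 on the siGFP array. After the arrays were scaled, their spots overlapped, and the mean was 1.22-fold higher (log2 ratio 0.29, measurement SD 0.16). APOA1, the main protein of high-density lipoprotein, gave 125 against 155 on a probe with 1 spot, which was 1.28-fold lower (log2 ratio -0.36, measurement SD 0.23). A second APOA1 probe, with 10 spots, was well above background on neither array, with geometric means of 17.0 and 21.2 over the 9 spots kept on each.

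APOB and FGB were not well above background on either array. APOB, the structural protein of low-density lipoprotein, had a 10-spot probe with geometric means of 12.3 after #1 siHOTAIR and 10.8 after siGFP. A spot of 51.3 on the siGFP array had been marked as an outlier and was left out. FGB encodes the beta chain of fibrinogen, the precursor of fibrin in clots. Its 2 spots gave 9.40 and 8.26 against 7.21 and 6.25, and no ratio between such signals is given for either gene.

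AMBP, the precursor of alpha-1-microglobulin and bikunin, was well above background on the #1 siHOTAIR array only, and its 2 spots disagreed there. They gave 127 and 8.05 on the #1 siHOTAIR array, and 5.81 and 6.11 on the siGFP array. The mean of the #1 siHOTAIR spots, 31.9, lay below the dimmest signal well above background on that array (37.3), so no fold is given. One of the spots carried the difference, and the other was not well above background. AMBP stands on the list of changed genes that the study drew up from these same samples, so that list is not independent evidence of its direction.

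Of the 6 member probes compared, 3 were at least 2-fold lower (AFP, ALB and TTR) and 1, that of AMBP, was higher by its own signals. Over all 24117 compared probes, 989 (4.10%) were at least 2-fold lower and 795 (3.30%) at least 2-fold higher. Since AFP and ALB were selected on this comparison, nothing is read from their share of the members or from their place among all probes. A probe with 2 spots was at least 2-fold lower at both spots in 80 of 5038 cases (1.59%), and AFP, ALB and TTR were each among them. Of the 21428 probes well above background on both arrays, 59 (0.275%) were at least 3-fold lower, again including AFP, ALB and TTR. Ordered by log2 ratio among these, ALB held place 6 from the lowest, AFP place 7 and TTR place 27.

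The share of lowered probes depended on brightness, so each of the 3 genes was also set beside probes whose mean log2 signal was within 0.5 of its own. Near AFP, 73 of 3432 probes (2.13%) were at least 2-fold lower. Near ALB the figure was 126 of 3516 (3.58%), and near TTR it was 54 of 2887 (1.87%). AFP lay at percentile 41.0 of mean signal among compared probes, ALB at 27.7 and TTR at 60.6. AFP and ALB were chosen for their lower signal on these arrays, so these shares only describe the probes of like brightness.

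**Figure D2:**
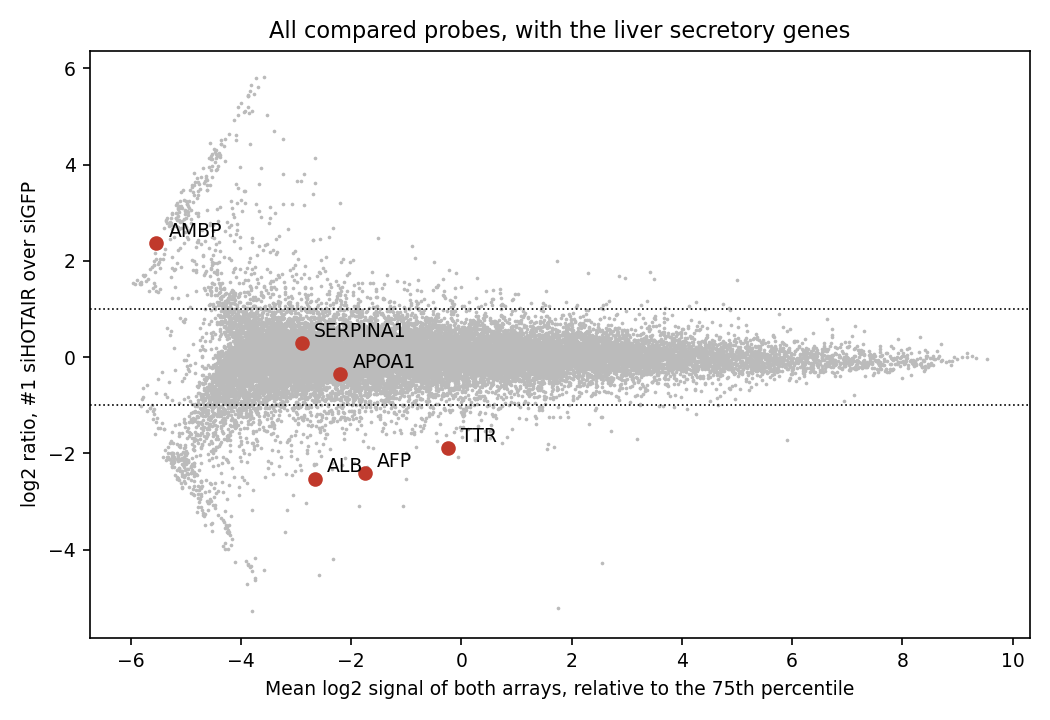
log2 ratio of #1 siHOTAIR over siGFP against the mean log2 signal of both arrays relative to the 75th percentile, for all 24117 compared probes (grey) and the 6 compared member probes (red); dotted lines mark 2-fold. AFP, ALB and TTR lie below the lower dotted line at log2 ratios of -2.42, -2.52 and -1.88. AMBP lies on the arm of dim probes at the left.

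Among genes detected above background in both conditions, those with a log2 ratio nearest to that of AFP were PRL, KLC4, ALB, ACTG2 and PLAC8. Likeness here is the difference between 2 log2 ratios from 2 arrays, and many patterns across conditions would look alike on it. PRL, the pituitary hormone prolactin, gave 38.3 against 188 (log2 ratio -2.35). ACTG2, a smooth muscle actin, gave 90.4 against 423 (log2 ratio -2.27). KLC4 (-2.32) and PLAC8 (-2.25) were each read from 1 spot. Of the 10 probes with 2 spots at or below the log2 ratio of TTR on both arrays, AFP, ALB and TTR were 3; the others were for TUBA4A, TAGLN, PRL, ACTG2, COL14A1, NPPB and MSRB2.

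The promoters of AFP and ALB are shown because both genes were lower by a similar amount with the scanner software's background correction. They run from 250 bases before to 50 after the start site and come from RefSeq on GRCh38.p14, AFP at chr4:73435971-73436270 and ALB at chr4:73404037-73404336, both on the plus strand. Capitals mark the TATA box motif TATAAA and the CCAAT box motif CCAAT, both common in promoters, searched on both strands with no mismatch (ATTGG is CCAAT on the other strand). These 2 motifs do not overlap and were chosen with the promoters in view.
AFP promoter: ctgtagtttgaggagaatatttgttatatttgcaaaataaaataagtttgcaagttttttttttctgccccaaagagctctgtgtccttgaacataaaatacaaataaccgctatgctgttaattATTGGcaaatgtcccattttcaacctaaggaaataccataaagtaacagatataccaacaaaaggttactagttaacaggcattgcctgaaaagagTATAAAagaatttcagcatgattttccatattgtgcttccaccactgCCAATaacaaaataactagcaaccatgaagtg
ALB promoter: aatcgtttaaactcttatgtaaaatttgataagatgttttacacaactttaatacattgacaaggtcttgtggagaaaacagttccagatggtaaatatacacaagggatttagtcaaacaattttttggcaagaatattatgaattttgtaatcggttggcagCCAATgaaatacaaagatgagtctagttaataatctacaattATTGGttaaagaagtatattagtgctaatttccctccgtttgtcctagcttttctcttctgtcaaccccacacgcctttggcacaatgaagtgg
AFP had 1 match to TATAAA, beginning at base -29 from the start site, and ALB had none in this window. CCAAT began at -86 on the plus strand and at -44 on the minus strand of ALB. In AFP it began at -125 on the minus strand and at 19, past the start site, on the plus strand. Of 35116 promoters of the same length, 4049 (11.5%) held TATAAA and 12155 (34.6%) held CCAAT, so that neither motif set these genes apart. A match describes letters only, and factor binding was not measured in these cells.

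None of the compared liver transcription factors reached 2-fold at its brightest probe. CEBPA, a C/EBP protein of hepatocytes and fat cells, gave 3650 after #1 siHOTAIR and 2514 after siGFP (log2 ratio 0.49, measurement SD 0.06). CEBPB, its relative in the acute phase response, had a log2 ratio of -0.19 (measurement SD 0.03). RXRA, the shared partner of many nuclear receptors, had a log2 ratio of -0.12. HNF4A, FOXA1 and FOXA2 were not well above background on either array. Of the 20 liver transcription factors listed, 8 were compared, 0 were at least 2-fold lower or higher, and their median log2 ratio was -0.12. GATA4, the lowest of them, gave 34.4 against 63.6 (log2 ratio -0.93), with 1 of its 2 spots well above background on the #1 siHOTAIR array. A second GATA4 probe gave 12.5 against 36.4, with 1 of its 2 spots well above background on the siGFP array only, and no fold is given.

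A separate list, of regulators of AFP and ALB and relatives of ZHX2, held 6 genes, among them the repressors ZHX2, ZBTB20 and ZFHX3. Of these, 5 were compared, 0 were at least 2-fold lower or higher by their brightest probe, and the median log2 ratio was 0.45, against 0.02 over all compared genes. The list joins repressors with an activator, and the brightest probes of ZHX2, ZHX3 and NR5A2 had 1 spot each. No common direction is read from the median. ZHX2, which holds AFP silent in the adult liver of mice, had a log2 ratio of -0.20 (64.4 against 71.6, measurement SD 0.23). ZFHX3, also called ATBF1, a repressor of the AFP enhancer, gave 324 against 230 (log2 ratio 0.45, measurement SD 0.12). ZHX1 gave 280 against 174 (log2 ratio 0.64, measurement SD 0.12). ZHX3 had 3 probes, with log2 ratios of 0.07, 0.27 and 1.13, all read from 1 spot each. The probes of NR5A2, a nuclear receptor that activates AFP, disagreed: the brightest had a log2 ratio of 0.63 (measurement SD 0.54), and the other gave 8.98 against 41.3, at least 1.14-fold lower. ZBTB20 was not well above background.

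Beyond AFP, ALB and TTR, the liver genes at least 2-fold lower at their brightest probe were ASS1 and EPCAM. EPCAM was so only by its own dim signals, with 1 siGFP spot well above background. In all, 10 lists of liver genes held 139 genes, of which 59 were compared, 5 were at least 2-fold lower and 2 at least 2-fold higher. Of the 13005 named genes compared, 441 (3.39%) were at least 2-fold lower and 354 (2.72%) at least 2-fold higher. Without the 8 members, 53 of 131 listed genes were compared, 2 were lower and 1 was higher. The median log2 ratio of those 53 genes was 0.03, beside 0.02 over all compared genes. Of the 53 genes, 25 lay below 0, a share close to the 47.7% of all compared genes that did.

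The albumin family list was made up of AFP, ALB, AFM and GC. AFP and ALB were lower, and AFM (afamin, a vitamin E carrier) and GC (the vitamin D-binding protein) were not well above background on either array. Among 12 plasma carriers, 6 were compared, with TTR lower and AMBP higher, and a median log2 ratio of -0.05. RBP4, the partner of TTR, and TF (transferrin) were not among those compared. SERPINA6, which carries cortisol, gave 236 against 201 (log2 ratio 0.18), and ORM1, an acute phase carrier, had a log2 ratio of 0.09.

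Among 14 genes of apolipoproteins and their assembly, 6 were compared and 0 were at least 2-fold lower or higher by their brightest probe. MTTP, which loads lipid onto APOB, had a log2 ratio of 0.81, with 9738 after #1 siHOTAIR and 5381 after siGFP. APOE, which clears lipoprotein remnants, had a log2 ratio of 0.03, and APOC1 one of -0.33. APOM, carried on high-density lipoprotein, lay at the limit: its brightest probe gave 263 against 489 (log2 ratio -0.94, measurement SD 0.08), and a second probe gave 91.5 against 198 (log2 ratio -1.16, measurement SD 0.23).

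The lists of coagulation factors (5 of 19 compared), protease inhibitors and acute phase proteins (5 of 18) and complement (5 of 13) held 0 genes at least 2-fold lower or higher by the brightest probe. Their median log2 ratios were -0.10, 0.29 and -0.03. F12, which starts contact coagulation, had a log2 ratio of 0.09, F7, of the tissue factor pathway, one of 0.25, and prothrombin (F2) one of -0.18. Among the inhibitors and acute phase proteins, HAMP, the iron hormone hepcidin, gave 261 against 196 (log2 ratio 0.37), and ITIH4 gave 96.6 against 130 (log2 ratio -0.48). Of complement, CFI, a protease that inactivates C3b, had a log2 ratio of -0.18. The probes of C8G disagreed in sign: its 2-spot probe gave 189 against 114 (log2 ratio 0.68), and a 1-spot probe gave 56.4 against 189 (log2 ratio -1.79).

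Among 22 hepatocyte enzymes and receptors, 7 were compared and ASS1, the arginine-producing enzyme of the urea cycle, was lower on both of its probes. One probe, with 1 spot, gave 308 against 783 (log2 ratio -1.39, measurement SD 0.11). The other, with 2 spots, gave a mean of 74.3 against 165 (log2 ratio -1.19, measurement SD 0.16). Its spots were 1.85-fold and 2.83-fold lower. ASS1 has many processed pseudogenes, so that its probes may read related transcripts. CPS1, the first enzyme of the same cycle, gave 331 against 448 (log2 ratio -0.48), and KRT8, an epithelial keratin, had a log2 ratio of 0.10. KRT18, the partner of KRT8, had a log2 ratio of -0.44 at its brightest probe, and a second probe gave 16.2 against 36.1, well above background on the siGFP array only. TAT, an enzyme of tyrosine breakdown, was well above background at 1 spot of the #1 siHOTAIR array only, with spots of 55.8 and 15.6 against 6.64 and 16.2, and no fold is given. Of the hepatocyte markers, ALB, CPS1 and ASGR1 passed the background call on both arrays, TAT on 1, and APOB and HNF4A on neither.

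The oncofetal genes, which like AFP are high in fetal liver and in some tumours, mostly did not reach 2-fold. Of 11 listed, 10 were compared, and the 1 that was lower, EPCAM, was so by its own dim signals. EPCAM, an epithelial adhesion molecule, had spots of 8.59 and 9.83 against 81.5 and 7.72, so that 1 of the siGFP spots carried the difference, and no fold is given. IGF2, a fetal growth factor, had a log2 ratio of 0.09 and H19, its imprinted neighbour, one of 0.37. The RNA-binding proteins LIN28B and IGF2BP3 had log2 ratios of 0.07 and 0.04, and GPC3 (glypican-3), another marker of liver cancer, one of 0.03. SALL4, a factor of embryonic stem cells and fetal liver, had the next lowest value, with 238 against 405 (log2 ratio -0.81, measurement SD 0.13). The median over the list was 0.06.

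**Figure D3:**
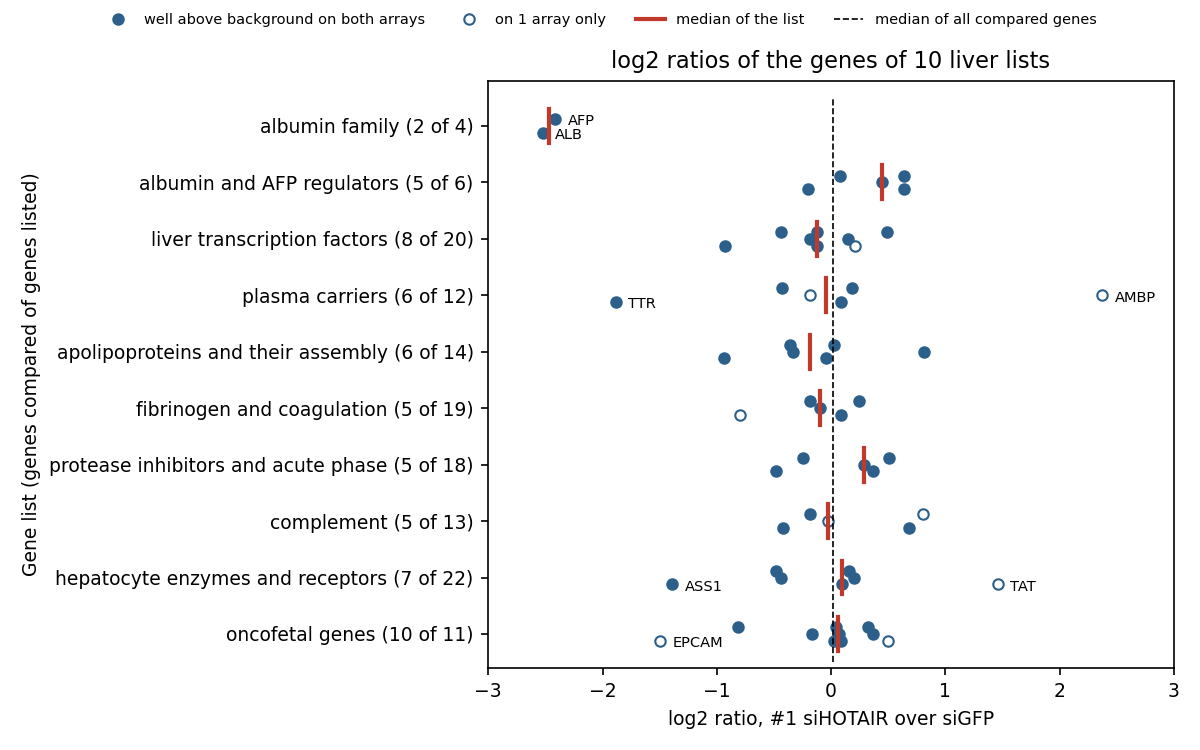
log2 ratio of #1 siHOTAIR over siGFP for the compared genes of 10 lists, each at its brightest probe, with the number compared and listed beside the list name; filled points were well above background on both arrays, open points on 1, red bars are list medians and the dashed line is the median of all compared genes (0.02). Genes past 2-fold by their own signals are named, and of these AMBP, TAT and EPCAM are open points.

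ALB and AFP lie side by side on chromosome 4, with no other gene between them in the RefSeq table. The genes that start within 1 Mb on either side numbered 42, of which 17 were protein-coding, 18 had a named probe and 12 were compared. Of these, 2 were at least 2-fold lower and 0 at least 2-fold higher, beside 3.39% and 2.72% of all compared genes. PPBP, a platelet chemokine, had 10 spots, which ran from 572 through a median of 628 to 716 on the #1 siHOTAIR array and from 1307 through 1397 to 1436 on the siGFP array. All its #1 siHOTAIR spots lay below all its siGFP spots, with a log2 ratio of -1.17 (measurement SD 0.03). MTHFD2L, a mitochondrial folate enzyme, ran from 98.0 through 111 to 129 against 222 through 231 to 254 over the 9 spots kept on both arrays, again without overlap (log2 ratio -1.12, measurement SD 0.07).

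In all, 11 of the 12 neighbours had a log2 ratio below 0, with a median of -0.37, beside 47.7% of all compared genes. Apart from RASSF6 and MTHFD2L, the 11 were CXC chemokines, most of which attract neutrophils, in one cluster of related genes, so that they are not independent of each other. PF4V1 had a log2 ratio of -0.99 from 1 spot, RASSF6 one of -0.60 from 1 spot, and PF4 one of -0.53. CXCL3, CXCL5, CXCL6 and CXCL8 lay between -0.41 and -0.22. CXCL1 (-0.17, second probe -0.30) and CXCL2 (-0.14, second probe -0.09) were closest to 0, and ANKRD17, on the other side of ALB, had a log2 ratio of 0.09 (second probe 0.43). Genes of the CXC cluster are similar in sequence, and signal shared between their probes was not tested. With the scanner software's background correction, none of the 12 came within 1 log2 unit of AFP or ALB. That distance was not kept with no background correction. AFP and ALB then had log2 ratios of -1.55 and -1.31, and 1 of the 12 was still at least 2-fold lower.

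**Figure D4:**
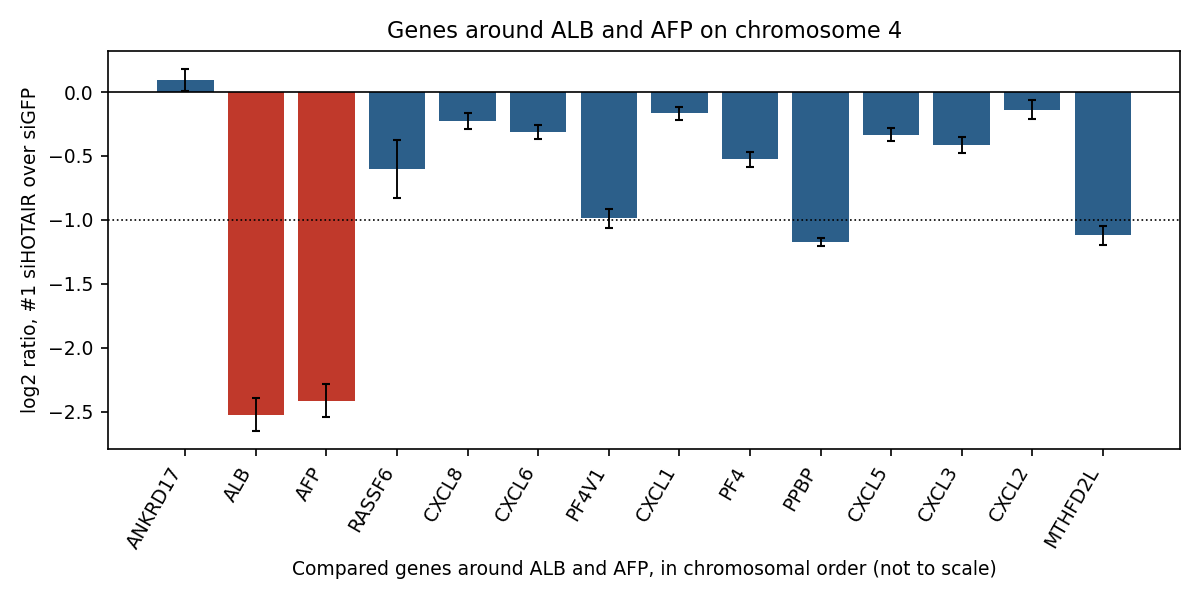
log2 ratio of #1 siHOTAIR over siGFP for ALB and AFP (red) and the 12 compared genes around them on chromosome 4 (blue), in the order of the RefSeq table and not to scale; error bars are the measurement SD within an array and the dotted line marks 2-fold lower. ALB and AFP stand at -2.52 and -2.42, PPBP and MTHFD2L at -1.17 and -1.12, and ANKRD17 alone lies above 0.

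How the background of a spot was handled moved the size of the AFP and ALB ratios but not their direction. With background modelled by normexp (a method that keeps corrected signals positive), the log2 ratio was -1.65 for AFP, -1.44 for ALB and -1.61 for TTR. With no background correction it was -1.55, -1.31 and -1.55. The order of the 3 genes changed with this choice, since ALB was the lowest with the scanner software's correction and the least lowered with the other methods. SERPINA1 stayed between 0.13 and 0.36 over all these settings. For AMBP the log2 ratio fell from 2.37 with its own dim signals to 0.11 when the siGFP side was set to the dimmest signal well above background.

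**Figure D5:**
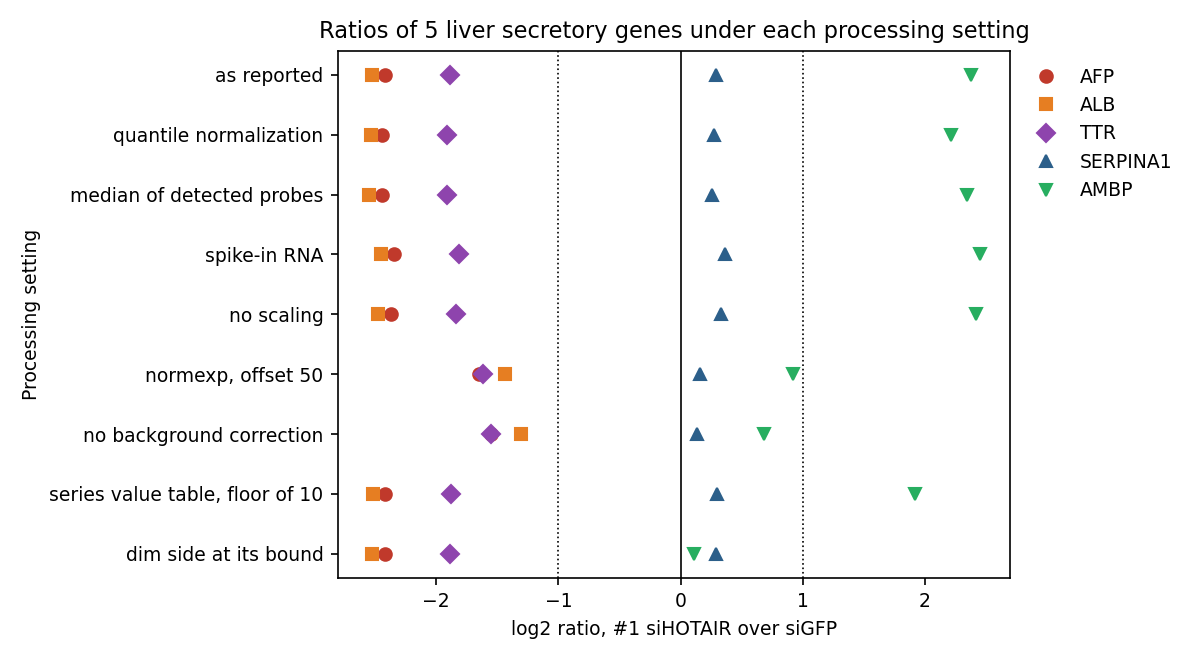
log2 ratio of #1 siHOTAIR over siGFP for AFP, ALB, TTR, SERPINA1 and AMBP under 9 ways of scaling, background correction or treating dim signals; dotted lines mark 2-fold. AFP, ALB and TTR stay left of the 2-fold line under every setting shown, between -2.55 and -1.31, and AMBP moves from 2.45 to 0.11.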

How the data were processed

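RNA of SBC-3 cells was hybridized to one-colour Agilent SurePrint G3 arrays, 1 array for #1 siHOTAIR and 1 for siGFP. The authors extracted spots with Feature Extraction 10.10.1.1 and used GeneSpring GX with a P-value limit, a fold threshold and gene ontology analysis. The deposited intensity (processed signal) was background-subtracted and detrended, with very low values replaced by a surrogate, and not normalized between arrays. The deposited series table holds the background-subtracted intensity without detrending (largest difference from the scanner files 0). Other deposited columns are software flags, with 0 or 1 for background, outlier and saturation.

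From there, log2 processed signals were set against each array's 75th percentile over non-control spots. Outlier spots (393 for #1 siHOTAIR and 375 for siGFP) were left out on that array, 0 spots were saturated, and log2 values were averaged over a probe's remaining spots. Compared probes had 50% or more of their spots well above background in 1 condition or both, and 52.1% of all probes met this for #1 siHOTAIR and 55.3% for siGFP. Changed means at least 2-fold. Where a probe met it in 1 condition only, its dim signal was replaced by the dimmest spot well above background on that array, if higher, and "at least" folds use this bound. Each gene of a list was read at its brightest probe. Accessions were matched without versions to RefSeq names on GRCh38.p14 (96.8% of NM_ probes), used for names, gene order and promoters, while the array was designed on hg19. The measurement SD came from 10-spot probes in 6 bins of signal. The averaging and thresholds were tested on simulated data. Changes were planted there only in probes bright on the siGFP array, and a plain signal limit replaced the background call. Calls on dim probes were therefore not covered.

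The members and lists were chosen with earlier results of these data known. Named genes were all members, list genes past 2-fold and the 3 brightest compared genes of each list, all compared neighbours on chromosome 4, the 5 genes nearest to AFP, and HOTAIR, ACTB and GAPDH, whose log2 ratio was close to 0. Some list genes that the rule names are not reported here. Factors known to control AFP or ALB, second probes that differed and genes just under 2-fold were named after their values were seen. With 1 array per condition no P-value was computed, and precision rests on signal over background. Alternatives were 4 other scalings, 2 background corrections, the series table, filters, bounds and thresholds. Both background corrections used the median pixel signal in place of the mean, which the files used here do not give. Python 3.11.15, R 4.3.3 and limma 3.58.1 were used.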

Additional observations from a re-analysis of the deposited data

How the results depend on the processing

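AFP, ALB and TTR were at least 2-fold lower under every alternative run, so that the number of member probes lower stayed at 3. AMBP was the 1 member higher by its own signals, and 0 members were higher with normexp, with no background correction, with the dim side at its bound, with both arrays required, or with every spot required to be well above background or changed. The last 2 of these were chosen after seeing the data. Every spot of ALB was well above background on the siGFP array, but only 1 of 2 on the #1 siHOTAIR array. ALB was still counted, so that this rule had to be met in 1 condition only. Of the liver list genes, 5 were lower, which became 4 with normexp, no background correction, the bound or both arrays required, 9 without the filter on dim probes, 9 at 1.5-fold and 3 at 3-fold. The 2 that were higher became 0 with normexp, with no background correction, at the bound or with both arrays required, 7 at 1.5-fold and 1 at 3-fold. Of the chromosome 4 neighbours, 2 were lower, which became 3 when scaled to the median of detected probes, 1 with normexp or no background correction, 4 at 1.5-fold and 0 at 3-fold, and 1 was higher without the filter. Why the background settings moved these counts was not tested. Scalings moved the median of all compared probes by 0.08 at most. The list medians of plasma carriers, complement and hepatocyte enzymes changed sign among settings. No paired analysis was possible because there was 1 array per condition.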
